A study of Mus musculus with 2 samples.

Results

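Neurosphere S-phase cells are the GL261 cells of a neurosphere culture whose UMIs (unique molecular identifiers, each counting 1 captured RNA molecule) lay most often on 8 genes of the G1/S transition and of DNA replication. The 8 genes were Hist1h2ap, Hist1h1b, Hist1h2ae, Rrm2, Dscc1, Cdc6, Ccne2 and Ung. The score of a cell was its UMIs on these genes divided by all its UMIs left after mitochondrial genes and the Rps and Rpl ribosomal protein genes were dropped. Of 4951 neurosphere barcodes called as cells, 4276 had at least 1000 UMIs and passed a minimum number of genes set for their library, and the top 15% of these by score, 641 cells, were the S-phase cells. They were compared with the bottom 50%, 2138 cells, and the 1497 cells between were kept as a middle group. The series held 10715 called cells in all, from 2 libraries.

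GL261 is a mouse glioma line of C57BL/6 origin, labelled as astrocytoma. Adherent cells grew in DMEM with 10% fetal bovine serum. Neurospheres, floating clusters of cells, formed when that medium was supplemented with B-27 and the growth factors EGF and FGF, 20 ng/ml of each, and were collected at day 12. Both cultures were treated with trypsin, the neurospheres were also broken up by pipetting, and both were frozen in medium with DMSO and read as 1 single-cell library each, by a method that captures polyadenylated RNA at its 3′ end. The neurosphere library held 82832873 UMIs, between 504 and 90831 per barcode. The adherent library held 68531063, between 500 and 51270 per barcode. The libraries shared 12 cell barcodes, 2 of which belonged to neurosphere S-phase cells.

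In S phase a cell copies its genome once. Origins of replication are loaded with the MCM helicase in G1 and fired by cyclin E/CDK2, cyclin A/CDK2 and CDC7 kinase, and E2F transcription factors, released from the retinoblastoma protein, switch on many of the genes needed. Core and linker histones are made in the same hours, mostly from clustered genes whose messages end in a stem-loop, not in a poly(A) tail.

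All 8 score genes were higher in the members, which they had to be as a group, because the members were chosen by their sum. These values describe the choice and no test was made. With 1 library per culture there were no replicates; intervals are exact 95% Poisson (levels), conditional binomial (ratios) or binomial (shares) limits that cover counting error only, and cells are not replicates. Levels are UMIs per 1000000 UMIs (CPM), pooled over the cells of a group.

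Rrm2, the regulated subunit of ribonucleotide reductase, stood at 266 CPM (256 to 275) in members, 80.1 in the middle group and 8.82 (7.73 to 10.0) in the bottom 50%. It lies at chr12:24708241-24714146 (GRCm38) and carried 31.1% of the score UMIs of members. Hist1h1b, a linker histone gene at chr13:21779883-21780625, stood at 163, 55.8 and 3.79 CPM in the same 3 groups. Dscc1, part of a clamp loader that acts in sister chromatid cohesion (chr15:55076099-55090491), stood at 108, 50.3 and 8.07 CPM. These 3 genes were lower from group to group, as were the other 5.

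Cdc6, which loads the MCM helicase (chr11:98907801-98923940), stood at 77.7, 33.5 and 4.02 CPM in members, middle and bottom cells. Ccne2, cyclin E2 (chr4:11191351-11204779), stood at 75.5, 21.3 and 3.91 CPM. Ung, the uracil DNA glycosylase (chr5:114130386-114139323), stood at 66.9, 30.4 and 5.56 CPM. The H2A genes Hist1h2ap (chr13:21833026-21833507) and Hist1h2ae (chr13:23570517-23571220) had the lowest member levels of the 8, at 60.5 and 36.2 CPM against 2.55 and 2.85 CPM in the bottom cells.

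Counts of Hist1h2ap are uncertain as counts of 1 gene, because 93.1% of the 50-base windows of its annotated transcript also occur in transcripts of other histone genes. The same share was 43.2% for Hist1h2ae, while none of the 694 windows of Hist1h1b was shared.

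**Figure D1:**
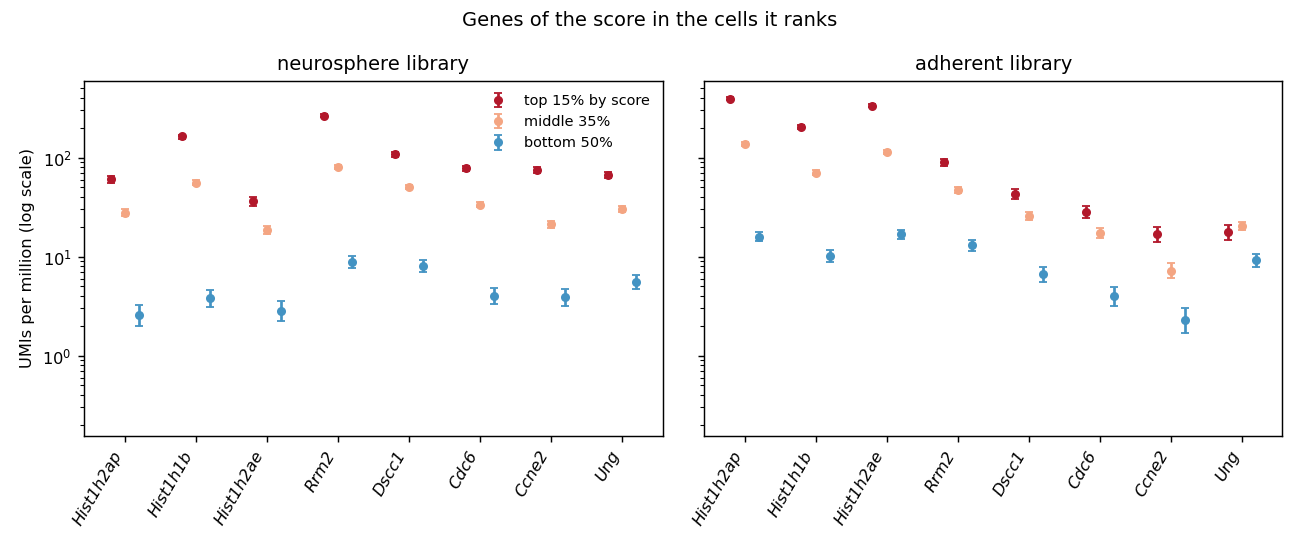
Level of each score gene in CPM (log scale) in the top 15% (red), middle 35% (orange) and bottom 50% (blue) of cells by score, in the neurosphere library on the left and the adherent library on the right, with 95% Poisson intervals. In the neurosphere library Rrm2 is the highest gene in members (266 CPM), while in the adherent library Hist1h2ap is (393 CPM).

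Single score genes were not seen in every member. At a depth of 5000 UMIs per cell, reached by random thinning, Rrm2 was seen in 69.8% of members (66.1 to 73.3) and 3.38% of bottom cells (2.64 to 4.25), and Hist1h2ae in 14.4% and 1.40%. Unthinned, these shares were 95.6% and 8.70% for Rrm2 and 36.2% and 3.51% for Hist1h2ae. Thinning left out 2 members and 67 bottom cells as too shallow. Median depth was 15673 UMIs in members, 16539 in the middle group and 10330 in the bottom 50%. Mitochondrial genes took a median 3.72% of UMIs in members and 4.30% in bottom cells.

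The members are a range of a score, cut at a set share of the cells, and whether they form a separate type was not tested. The lowest member had 5.778 score UMIs per 10000 and the highest non-member 5.775, as such a cut falls between neighbours. Within 10% of the cut lay 101 members and 126 non-members. A member had a median of 13 score UMIs and a bottom cell 0, since 1430 of the 4276 cells had none.

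The other genes were read from the same cells, so their values too are a description. Of 10255 genes with at least 200 UMIs over members and bottom cells, the 8 score genes among them, 709 (6.91%) were more than 1.5-fold higher in members and 1084 (10.6%) more than 1.5-fold lower. The median log2 ratio of all tested genes was -0.06. TMM scaling moved that median to 0.03 and the counts to 927 higher and 829 lower, so that 52.8% of the calls were higher in place of 39.5%.

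Many S-phase genes outside the score were higher too. Over 6 lists, 110 of 128 measured genes were over 1.5-fold higher in members, beside 6.91% of all tested genes, and 1 was lower, with their summed level at 15142 CPM in members, 10873 in the middle group and 6365 in the bottom 50%. Per cell, the median was 155 UMIs per 10000 in members and 50.5 in bottom cells. These counts do not set S phase apart from G2, since G2 genes were higher in 28 of 33 cases.

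Among the genes that license origins and build the helicase, 16 of 20 were higher, with a median log2 ratio of 1.66. Mcm3, a helicase subunit, stood at 195 CPM in members and 41.1 in bottom cells, a log2 ratio of 2.25 (2.14 to 2.35). The helicase cofactor Cdc45 had a log2 ratio of 2.63, Mcm10 2.54 and the loader Cdt1 1.80. The origin recognition subunits were uneven. Orc6 stood at 441 CPM against 165, while Orc4 stood at 63.6 against 72.8, within 1.5-fold.

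Of the G1/S kinases and E2F factors, 12 of 13 were higher, with a median of 1.59. Cyclin E1 (Ccne1) stood at 94.9 CPM against 20.9 and E2f1, an activator of the family, at 84.8 against 24.4. E2f7, a repressor made in S phase, stood at 29.3 CPM (26.2 to 32.7) against 3.04 (2.42 to 3.78), a log2 ratio of 3.27. Dbf4, the partner of CDC7, was the gene within 1.5-fold, at a log2 ratio of 0.57.

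Among polymerases and fork proteins 28 of 33 measured genes were higher, with a median of 1.62. Clspn (claspin, a fork and checkpoint mediator) stood at 91.7 CPM against 13.0, the sliding clamp gene Pcna at 414 against 108 and DNA ligase 1 (Lig1) at 125 against 25.2. Pold4, the smallest subunit of polymerase delta, went the other way, at 16.0 CPM (13.7 to 18.5) in members and 33.7 (31.5 to 36.0) in bottom cells, a log2 ratio of -1.08. It was the 1 gene of the 6 lists over 1.5-fold lower.

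Nucleotide supply genes were higher in 14 of 16 cases, with a median of 1.07. Thymidine kinase (Tk1) had a log2 ratio of 2.98, at 88.8 CPM against 11.2. Dut, which removes dUTP, stood at 794 CPM against 239 and thymidylate synthase (Tyms) at 258 against 63.6. Paics, of purine synthesis, had a log2 ratio of 0.96 and Impdh2 0.53.

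Of 19 measured genes of histone supply and chromatin assembly 14 were higher, with a median of 1.21. Slbp, which binds the histone message stem-loop, stood at 387 CPM against 150. Uhrf1, which guides DNA methylation to new DNA, and Chaf1b, of the histone chaperone CAF-1, each had a log2 ratio of 2.46.

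Repair and checkpoint genes were higher in 26 of 27 cases, with a median of 1.54. Brca1 stood at 77.9 CPM (72.8 to 83.3) in members, a log2 ratio of 3.04 (2.83 to 3.24) over bottom cells. Rad51ap1 had 2.85, the nuclease gene Exo1 2.77 and the kinase gene Chek1 2.16. Atrip, with 82 UMIs in members and 171 in bottom cells, was within 1.5-fold at 0.21 (-0.19 to 0.60).

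Of 13 measured cohesin genes 3 were higher, beside 6.91% of all tested genes, with a median of 0.39. Esco2 (log2 ratio 2.49) and Cdca5 (2.00), which establish cohesion during replication, were over 1.5-fold higher, and Smc1a, at 0.65, was the 1 ring subunit past that size. The other 10 measured genes of the list were within 1.5-fold, among them the loader Nipbl at -0.16.

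**Figure D2:**
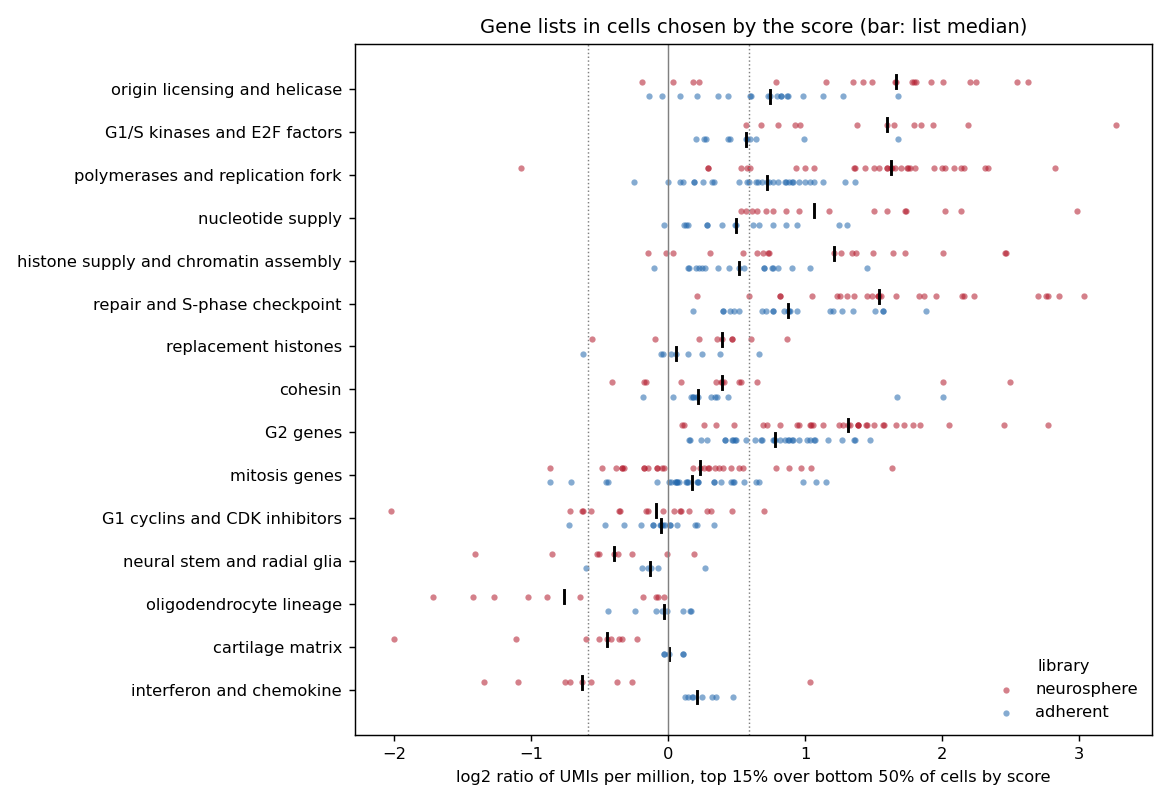
Log2 ratio of CPM, top 15% over bottom 50% of cells by score, for each measured gene of 15 lists in the neurosphere (red) and adherent (blue) libraries; black bars are list medians and dotted lines mark 1.5-fold. The medians of the 6 S-phase lists lie between 1.07 and 1.66 in neurospheres and between 0.49 and 0.87 in adherent cells.

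Clustered histone genes outside the score split in direction. Of 64 genes, 9 reached 200 UMIs. Of these 5 were higher and 4 lower, beside 6.91% and 10.6% of all tested genes. All 64 summed to 285 CPM in members, 209 in the middle group and 149 in the bottom 50%. The count of higher genes moved with the settings, to 15 at a minimum of 50 UMIs, 1 at 1000 UMIs and 2 after thinning. These settings also changed which genes were measured, since thinning left fewer UMIs under the same minimum of 200. The linker genes Hist1h1a (log2 ratio 3.15), Hist1h1e (2.15) and Hist1h1d (1.51), and the core genes Hist1h3c (2.34) and Hist1h4d (1.85), were higher. Hist1h1e stood at 88.8 CPM (83.3 to 94.5) in members and 20.0 (18.3 to 21.7) in bottom cells. Lower were Hist1h2bc, at 2.81 CPM (1.91 to 3.99) against 13.2 (11.9 to 14.7) and a log2 ratio of -2.23, Hist3h2ba at -1.49, Hist1h1c at -1.02 and Hist1h2be at -0.59, which was within 1.5-fold with TMM scaling (-0.51). Some histone genes, these H2B genes among them, can also make polyadenylated messages outside S phase. Sequence shared with other histone genes was 47.0% of windows for Hist1h3c, 32.0% for Hist1h1e and 10.2% for Hist1h4d, and 29.4% for Hist1h2bc, 16.3% for Hist1h2be and 8.54% for Hist1h1c. Of 9 replacement histone genes, which are transcribed through the cell cycle, 2 were over 1.5-fold higher, beside 6.91% of all tested genes. They were H1f0 (0.86) and H2afz (0.60), and the list's median was 0.39.

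Members also carried more messages of G2 genes, while those of mitosis genes were alike in pooled counts but not in the median per cell. Of 33 G2 genes 28 were higher, beside 6.91% of all tested genes, with a median log2 ratio of 1.31. The list had a median of 68.0 UMIs per 10000 in a member, 63.2 in a middle cell and 8.18 in a bottom cell. The middle group was thus close to the members, at 6693 CPM summed over the list against 7178, and with all other kept cells as the comparison the G2 and mitosis genes called higher went from 33 to 21. They were 44 after thinning and 48 with the mean of cell CPM. With the score on the 3 histone genes they were 49, and with the score on the 5 other genes 23. Top2a, the topoisomerase that untangles replicated DNA, stood at 497 CPM against 151, Kif15 at 131 against 24.0 and the condensin gene Ncapg2 at 79.1 against 11.6. Of 29 measured mitosis genes 5 were higher and 1 lower, beside 6.91% and 10.6% of all tested genes, with a median of 0.23. Cdc20, the activator of the anaphase-promoting complex, was the lower gene, at 190 CPM (182 to 198) against 345 (338 to 352), and Plk1 stood at 38.6 against 40.9. Their summed level was 3589 CPM in members, 5217 in the middle group and 3512 in the bottom 50%, while the medians per cell were 29.6, 42.1 and 7.90 per 10000.

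The bottom 50% was itself mixed. Its 1430 cells of score 0 held 1868 CPM of mitosis genes and 1841 of G2 genes, and its other 708 cells held 5353 and 5291 CPM. Median depth was 8828 UMIs in the former and 15718 in the latter. Ranked by the G2 and mitosis lists together, the top 15% of cells (641) included 85 members (13.3% of members, 10.7 to 16.1), 340 middle cells (22.7% of that group) and 216 bottom cells (10.1% of that group). By the mitosis list alone they included 40 members (6.24%), 338 middle cells (22.6%) and 263 bottom cells (12.3%). The cells richest in these messages were thus most frequent in the middle group, and by the mitosis list they were more frequent in the bottom 50% than among members. The values of G2 and mitosis genes above are against a group that contains such cells.

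**Figure D3:**
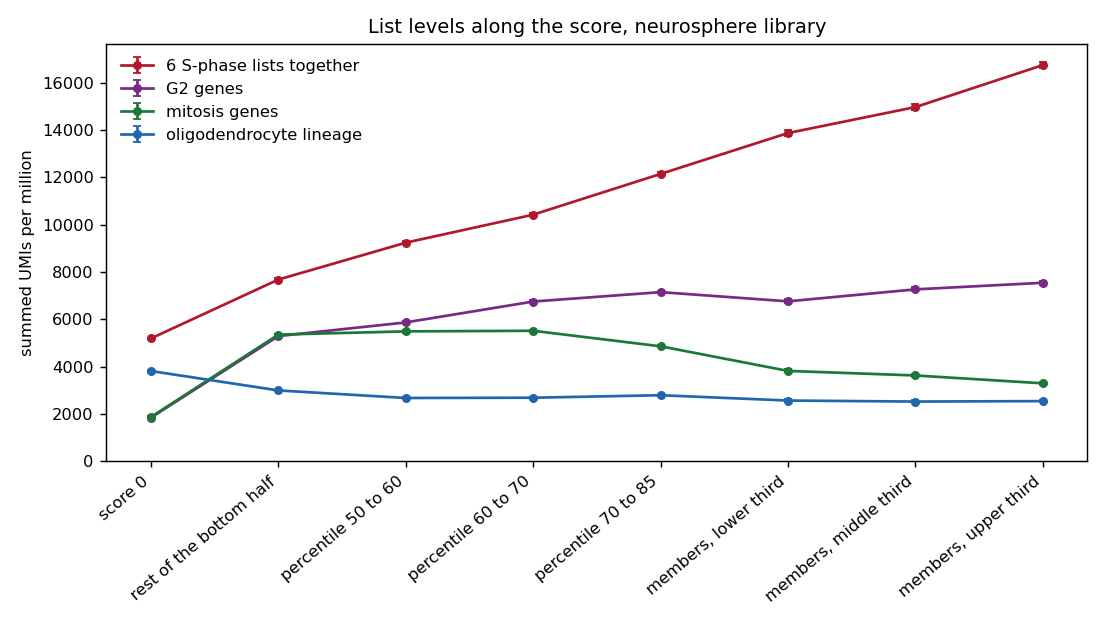
Summed level in CPM of the S-phase, G2, mitosis and oligodendrocyte lineage lists in neurosphere cells ordered by score, from the 1430 cells of score 0 to the 3 groups of members, with 95% Poisson intervals that are smaller than the points. The S-phase lists climb from 5190 to 16752 CPM, and the mitosis list is highest between percentiles 50 and 70 of the score.

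Along the score the S-phase lists climbed at every step, from 5190 CPM in cells of score 0 to 7680 in the rest of the bottom 50%, 12149 just below the members (percentiles 70 to 85), and 13878, 14976 and 16752 CPM in 3 equal groups of members from the lowest to the highest score. Mitosis genes were lower from each of these 3 groups to the next, at 3817, 3624 and 3292 CPM. G2 genes were higher from each to the next, at 6760, 7266 and 7545 CPM, as was Top2a, at 444, 502 and 552 CPM. Cdc20 went from 225 to 192 and 149 CPM and E2f1 from 70.3 to 80.4 and 106 CPM.

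Members differed in which part of the score they carried. The 3 histone genes took 30.5% of the score UMIs of members, and the share per member ran from 0% to 100%. Ordered by this share, the 213 lowest members had a median of 0% and the 214 highest 54.2%. The lowest group held 137 CPM of Ung (124 to 150), 127 of Cdc6 and 26.6 of Hist1h1b. The highest held 18.7 of Ung (14.8 to 23.3), 35.2 of Cdc6 and 292 of Hist1h1b. The split used these genes, so their order is given by it.

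Some genes outside the score followed the split. Mcm2 went from 174 CPM (160 to 190) in the low-histone members to 155 and 112 (102 to 122) in the high-histone members, and E2f1 from 109 to 98.5 and 54.4. Top2a went the other way, from 293 (274 to 313) to 489 and 654 (630 to 679), as did Mki67, from 46.9 to 90.9 and 148, and cyclin B1 (Ccnb1), from 39.4 to 77.2 and 159. Summed G2 genes went from 5243 to 6783 and 8952 CPM, and mitosis genes from 2232 to 3099 and 5028. The high-histone members were thus richer in G2 and mitosis genes. No such order held for all G1/S genes, since cyclin E1 (95.2, 113 and 77.9 CPM) and Pcna (418, 461 and 367) were highest in the middle group, and the 6 S-phase lists together stood at 15934, 15825 and 13940 CPM. Median depth differed too, at 12888 UMIs in the former and 17864 in the latter. Hist1h1e, a histone gene outside the score, went from 39.1 to 80.6 and 133 CPM.

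**Figure D4:**
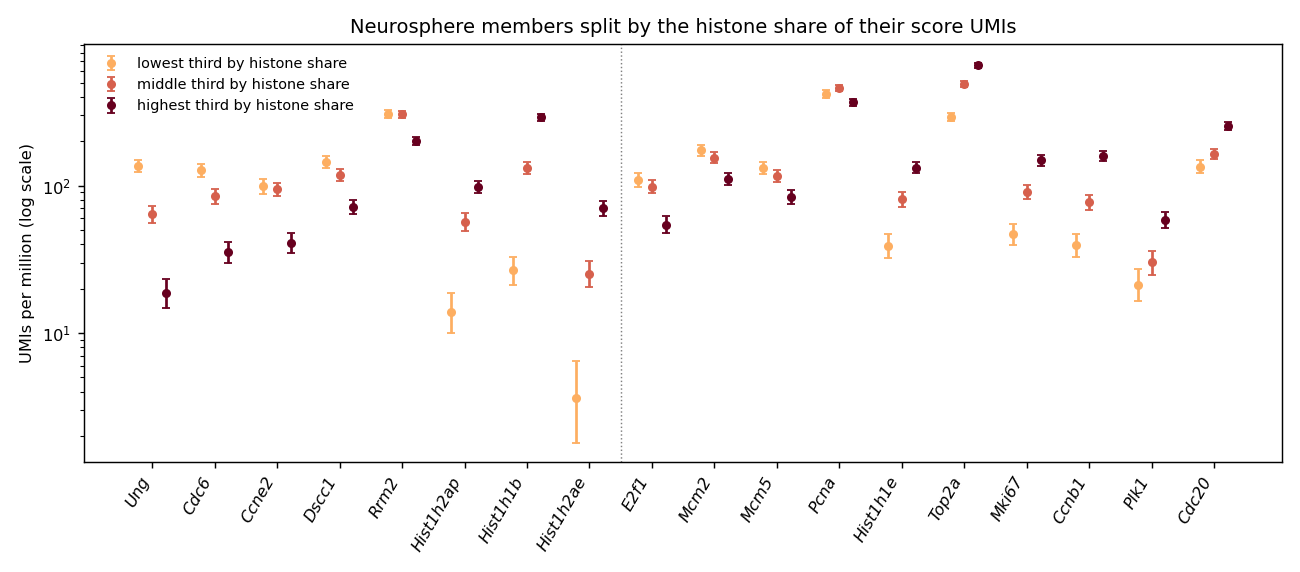
Level of 18 genes in CPM (log scale) in the 213, 214 and 214 neurosphere members with the lowest (yellow), middle (red) and highest (dark) share of histone UMIs in their score, with 95% Poisson intervals. Left of the dotted line are the 8 score genes, which set the split; right of it Mcm2 falls from 174 to 112 CPM and Ccnb1 climbs from 39.4 to 159.

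When each score gene was left out in turn and the cells were chosen by the other 7, the gene stayed over 1.5-fold higher in the new top 15% in 8 of 8 cases. The 8 genes were chosen together with earlier results of these data known, so this describes the score and is no test of it. Between 83.2% (Rrm2 left out) and 94.4% (Hist1h2ae left out) of the new top 15% were also members. The log2 ratio was 3.28 for Hist1h1b (3.10 to 3.46), 3.13 for Rrm2 (3.01 to 3.26), 3.12 for Ccne2, 3.10 for Hist1h2ap, 2.74 for Cdc6, 2.55 for Dscc1, 2.41 for Hist1h2ae and 1.93 for Ung (1.73 to 2.13). The ratios of the 5 other genes were smaller when the histone genes alone chose the cells. Those of the 3 histone genes were also smaller when the 5 other genes alone chose the cells. They were 2.27 for Hist1h1b, 1.89 for Hist1h2ap and 1.13 for Hist1h2ae. In cells chosen by the 3 histone genes alone, Rrm2 stood at a log2 ratio of 1.93 and Ccne2 at 1.45, but Cdc6 at 0.69 and Ung at -0.35 (-0.57 to -0.14).

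Outside all lists and the clustered histones, the highest log2 ratio was that of Neil3, a DNA glycosylase, at 84.0 CPM (78.7 to 89.6) in members and 7.66 (6.65 to 8.79) in bottom cells, a ratio of 3.45. The 14 that followed were Tcf19 (3.38), Fam111a (3.18), Slfn9 (3.06), Rmi2 (2.81), Mybl2 (2.81), Pclaf (2.66), Atad2 (2.49), D430020J02Rik (2.46), BC030867 (2.38), Cenpu (2.38), Rad54l (2.36), Wdr76 (2.34), Lrr1 (2.33) and Dtl (2.26). Several act where DNA is copied or mended. FAM111A and PCLAF bind the PCNA clamp, RAD54L and RMI2 act in recombination, and DTL directs the destruction of CDT1. Of the 709 higher genes 546 were in no list.

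The lowest was Nppb, a natriuretic peptide gene, with 4 UMIs in members (0.363 CPM, 0.0989 to 0.929) and 252 in bottom cells (9.46 CPM), a log2 ratio of -4.70 (-6.59 to -3.33). Next came Pik3ip1 (-2.82), which restrains PI3-kinase, Esp16 (-2.55), the histone demethylase gene Kdm5b (-2.53), Spp1 (-2.49), Mucl2 (-2.39), the PI3-kinase regulatory subunit gene Pik3r3 (-2.21), Trim55 (-2.16), Enpp2 (-2.09) and Prph (-2.06). The remaining 5 of the 15 lowest, Cox6a2, Trp53inp1, Tmem140, Olfr171 and Gm49494, lay between -1.95 and -1.94.

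Among G1 cyclins and CDK inhibitors 1 of 18 measured genes was higher and 4 lower, beside 6.91% and 10.6% of all tested genes. Btg2, an antiproliferative gene induced by p53, stood at 72.1 CPM (67.2 to 77.3) in members, 124 in the middle group and 294 (287 to 300) in bottom cells, and at 374 in cells of score 0. Cdkn2c was the higher gene (0.70), and Btg1, Ccng2 and Cdkn2b were the others lower (-0.72, -0.63 and -0.62). With TMM scaling Ccng2 (-0.55) and Cdkn2b (-0.53) were within 1.5-fold. Cyclin D1 (Ccnd1) was alike, at 1467 CPM against 1376, and Cdkn1a stood at 229 against 294, within 1.5-fold.

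The oligodendrocyte lineage list summed to less in members than in the bottom 50%, by under 1.5-fold, and to most in cells of score 0. Of 10 measured oligodendrocyte lineage genes 6 were over 1.5-fold lower, beside 10.6% of all tested genes. The list had a median log2 ratio of -0.76 against -0.06 over all genes. Lhfpl3 was within 1.5-fold with TMM scaling (-0.55). The list summed to 2541 CPM in members, 2727 in the middle group, 3813 in cells of score 0 and 2991 in the rest of the bottom 50%. Mbp, myelin basic protein, stood at 57.7 CPM in members, 85.4 in the middle group and 190 in bottom cells. Bcas1, a marker of oligodendrocytes that begin to myelinate, stood at 181 CPM against 368. The transcription factor genes Olig1 (1296 against 1383), Olig2 (455 against 465) and Sox10 (178 against 203) were within 1.5-fold.

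Other markers were within 1.5-fold or lower, beside 10.6% of all tested genes that were lower. Of astrocyte genes 2 of 5 measured were lower, led by Aldh1l1 (-1.91) and S100b, at 161 CPM against 361. Of neural stem and radial glia genes 2 of 9 were lower, Hes5 at -1.41 and Notch1 at -0.85, and Sox2 stood at -0.26. Cartilage matrix genes were lower in 3 of 9 cases (Comp -2.00, Matn1 -1.11, Col2a1 -0.60), simple keratins in 1 of 2 (Krt18 -0.91, with Krt8 at 2640 CPM against 3705, while the median cell had 6.74 keratin UMIs per 10000 in members and 6.05 in the bottom 50%) and neuron genes in 1 of 3 (Syt1 -0.63). With TMM scaling Col2a1 (-0.51) and Syt1 (-0.54) were within 1.5-fold. No gene of these lists was over 1.5-fold higher.

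Interferon and chemokine genes were lower in 5 of 9 cases, beside 10.6% of all tested genes as for the lists that follow, among them Ifit3 (-1.34), Ifit1 (-1.10) and Isg15, at 261 CPM against 429. Irf7, another of them, was within 1.5-fold with TMM scaling (-0.54). Cxcl10 was higher at 1.03, but at -0.32 in the top 10% and -1.83 after thinning. Stress response genes were lower in 4 of 11 cases (Slc7a11 -1.03, Nupr1 -0.78, Sesn2 -0.72, Ddit3 -0.67, or -0.58 and within 1.5-fold with TMM scaling), but the list had a median of -0.02, summed to 987 CPM in members and 992 in bottom cells, and had a higher median per cell in members (8.36 against 6.81 UMIs per 10000). None of 13 measured genes of the EGF and FGF response passed 1.5-fold, and of 7 measured genes of purinergic receptors and metalloproteinases examined in the study 2 were lower, P2rx7 (-1.04) and P2rx4 (-0.73). The 8 immune cell genes summed to 3.45 CPM in members and 5.75 in bottom cells, most of it Cd68, and none reached 200 UMIs. Of 6 endothelial genes Flt1 was measured, at 0.16, and the list summed to 25.4 against 24.5 CPM.

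The same score and shares picked 758 of 5051 adherent cells, with the lower gene limit used for that library, and 2525 bottom cells. Median depth was 9684 and 7199 UMIs. Of 9043 genes, 292 (3.23%) were over 1.5-fold higher and 143 (1.58%) lower. With 1 library per culture no test between cultures was possible, so the values stand side by side.

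The 8 genes took different shares of the score in the 2 cultures. Histone genes took 82.7% of the score UMIs of adherent members and 30.5% in neurospheres. The method captures polyadenylated RNA, while most clustered histone messages lack a poly(A) tail, and 93.1% of the windows of Hist1h2ap are shared. Whether capture of these messages differed between the libraries was not tested. Hist1h2ap stood at 393 CPM in adherent and 60.5 in neurosphere members, and at 126 and 23.0 over all kept cells. Rrm2 stood at 89.3 and 266 CPM in members, and at 39.0 and 82.4 over all kept cells. Hist1h1b was the gene most alike, at 205 and 163 CPM. Ung stood at 17.5 CPM in adherent members, 20.4 in the adherent middle group and 9.20 in the bottom 50%, and when it was held out of the score its log2 ratio was -0.28 (-0.61 to 0.05), against 1.93 in neurospheres. The other 7 genes stayed over 1.5-fold higher when held out, although Ccne2, with 104 UMIs in the chosen cells and 82 in the bottom cells, was under the minimum of 200.

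Which culture had more cells over a common score depended on the genes. With every cell thinned to 5000 UMIs, which left out 80 neurosphere and 587 adherent cells, at least 3 score UMIs were found in 796 of 4196 neurosphere cells (19.0%, 17.8 to 20.2) and 1262 of 4464 adherent cells (28.3%, 27.0 to 29.6). At least 2 UMIs on the 5 genes that are not histones were found in 22.1% of neurosphere and 9.61% of adherent cells. At least 1 UMI on the 3 histone genes was found in 22.5% and 53.0%. The order of the cultures by the histone genes was the reverse of that by the other 5.

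The contrast was wider in neurospheres for most lists, but both groups differed between the cultures. The median adherent bottom cell had 22.2, 23.9 and 67.8 UMIs per 10000 on the G2, mitosis and S-phase lists. The median neurosphere bottom cell had 8.18, 7.90 and 50.5. Medians of members were 51.2, 34.1 and 105 in adherent and 68.0, 29.6 and 155 in neurosphere cells. Histone genes took 82.7% of the score UMIs of adherent members. What set the narrower adherent ratios was not tested. Adherent S-phase list genes were higher in 69 of 119 cases, beside 3.23% of all tested genes there. Their median was 0.68, against 1.53 in neurospheres. G2 genes had a median of 0.78 and mitosis genes 0.17. Oligodendrocyte lineage genes, with a median of -0.03, had no gene past 1.5-fold in adherent cells, where Mbp was at -0.24. Their summed level in adherent members was 825 CPM, against 2541 in neurosphere members. Clustered histone genes were higher in 14 of 16 cases and lower in none, beside 3.23% and 1.58% of all tested genes there. Hist1h1c (0.99) and Hist1h2be (1.36), lower in neurosphere members, were higher in adherent members, and Hist3h2ba was at 0.28.

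Across 8721 genes measured in both libraries, without the score genes, the log2 ratios had a Pearson correlation of 0.69, given as a description, since genes are not independent and both sets of cells were chosen by the same score. Of the 620 genes higher in neurospheres 239 (38.5%) were also higher in adherent members, which is 87.2% of the 274 higher there. Of the 672 lower in neurospheres 69 (10.3%) were lower in both, 60% of the 115 lower in adherent members.

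E2F factors regulate many of the genes above, so promoters were searched for the core letters of the E2F motif. The RefSeq promoters (GRCm38.p6) run from 250 bases before to 50 after a gene's start, and 110 of the 130 genes of the 6 S-phase lists matched by symbol. The letters searched on both strands were TTSSCGC, with S for C or G, and matches can overlap each other. They occurred in the promoters of 64 (58.2%) of the 110 genes, of 4 (16%) of 25 mitosis genes and of 2936 (10.9%) of all 27025 genes with a promoter. The 27025 were neither limited to genes measured here nor matched for base composition, so the shares are not like for like. Of the score genes Rrm2, Cdc6 and Ung matched, and the letters were found for Rrm2, starting 235 bases before the start, and for Cdc6, but not in this window of Ung. A match is a run of letters and says nothing of binding. The 150 bases before the start are shown for a score gene, a helicase subunit, an E2F gene and the highest of the unlisted genes that held the letters, with the matches in capitals.
Cdc6 (chr11:98908001-98908150, plus strand): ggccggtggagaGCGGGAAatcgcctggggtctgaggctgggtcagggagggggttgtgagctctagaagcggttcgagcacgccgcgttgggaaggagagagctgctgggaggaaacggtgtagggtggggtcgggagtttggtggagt
Mcm6 (chr1:128359706-128359855, minus strand): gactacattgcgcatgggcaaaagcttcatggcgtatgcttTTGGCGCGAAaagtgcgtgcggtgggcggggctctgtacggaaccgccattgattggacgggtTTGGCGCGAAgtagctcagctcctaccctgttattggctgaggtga
E2f7 (chr10:110745289-110745438, plus strand): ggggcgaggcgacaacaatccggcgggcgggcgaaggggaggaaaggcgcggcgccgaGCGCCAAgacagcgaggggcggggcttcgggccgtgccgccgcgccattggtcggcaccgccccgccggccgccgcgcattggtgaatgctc
Tcf19 (chr17:35516825-35516974, minus strand): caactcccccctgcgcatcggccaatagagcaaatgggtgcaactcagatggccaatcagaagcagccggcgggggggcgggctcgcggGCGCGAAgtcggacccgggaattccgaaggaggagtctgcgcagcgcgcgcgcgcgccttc
Starts are those of RefSeq, which for Cdc6 and Mcm6 are not those of GENCODE, and the Cdc6 window lies inside the gene position given above. In Cdc6 the match starts 138 bases before the start and in Tcf19 61. Mcm6 holds overlapping matches from 109 and 106 bases and again from 46 and 43. E2f7 has 1 in the window shown, from 92 bases, and 2 further up, from 223 and 198. In the members these 4 genes stood at log2 ratios of 4.27, 1.66, 3.27 and 3.38 for Cdc6, Mcm6, E2f7 and Tcf19.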

How the data were processed

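The authors deposited filtered matrices of UMI counts per gene and cell for 1 adherent and 1 neurosphere GL261 library; the submitters' processing notes name Cell Ranger 7.0.1 and the mm10 build. The deposited counts were used as they stand. Mitochondrial (13) and Rps and Rpl (101) genes were dropped, cells were kept and chosen as the report says, and doublets were not called. Counts were summed per group and divided by their total (CPM). Log2 ratios had no pseudocount, with 0 counts set to 3. Genes needed 200 UMIs over both groups; "higher" and "lower" mean past 1.5-fold. No test was made, since each culture had 1 library. Named genes were the 8 score genes, every gene of 23 lists, clustered histone genes, and the 15 highest and 15 lowest other genes. Members and lists were chosen with earlier results of these data known. Positions are from GENCODE M21 (GRCm38). Python 3.11.15, numpy 2.4.6, scipy 1.17.1 and, for TMM, edgeR 4.0.16 were used. The calculations were tested on simulated data. Alternatives covered scaling, gene and cell filters, thinning, the top share, the comparison cells and the score genes.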

Additional observations from a re-analysis of the deposited data

Results flagged for a closer look

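Hist1h1c and Hist1h2be stood out because they lay past 1.5-fold in opposite directions in the 2 cultures. Hist1h1c had a log2 ratio of -1.02 in neurosphere members against their bottom 50% and 0.99 in adherent members. Hist1h2be had -0.59, just past 1.5-fold and within it with TMM scaling (-0.51), and 1.36. The difference was not tested, with 1 library per culture. In CPM, Hist1h1c stood at 14.7 in neurosphere and 34.9 in adherent members, and over all kept cells at 21.6 and 22.5.

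The barcodes left out of the comparisons also held score UMIs. The 675 left-out neurosphere barcodes had 58 of them, 1.01 per 10000 UMIs, against 0.396 in the bottom 50%, 2.95 over all kept cells and 8.53 in members. The 713 left-out adherent barcodes had 73, 1.86 per 10000, against 0.779 in the bottom 50% of that library. Mitochondrial genes took a median 87.0% and 48.8% of the UMIs of these barcodes.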

How the results depend on the processing

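Of 130 alternative values for the counts and shares, 109 stayed within 1.5 times the reported count or within the interval of the reported share, and 21 did not. With a minimum of 50 UMIs per gene, 1992 genes were lower and 15 clustered histone genes higher in neurosphere members, and 447 genes were higher and 598 lower in adherent members. With 1000 UMIs these became 375 higher, 363 lower and 1 histone gene in neurospheres, and 88 higher, 23 lower and 30 S-phase list genes in adherent members; fewer genes were tested. Against all other kept cells, neurosphere members had 422 genes higher, 684 lower and 21 G2 and mitosis genes higher, and adherent members had 45 S-phase list genes higher. In cells thinned to 5000 UMIs, 2 clustered histone genes were higher in neurosphere members and 88 genes lower in adherent members. The minimum of 200 UMIs per gene was kept there, on fewer UMIs. With the score on the 5 other genes, adherent members had 153 genes higher and 80 lower. The share of adherent cells over the common score was 22.5% without thinning (neurosphere 14.99%), 18.7% at the top 10% (11.8%) and 43.1% at the top 20% (30.2%). Signs were compared only for named genes past 1.5-fold as reported. Changes of sign in neurospheres were those of Cxcl10 (-0.32 in the top 10%, -1.83 thinned), and, with the score on the 3 histone genes, Ung (-0.35) and E2f3 (-0.0908). In adherent members Ung changed with the histone score (-0.55), and with the score on the 5 other genes H2afx (-0.51), Kif11 (-0.00580), Spc25 (-0.29), Kif22 (-0.15), Prc1 (-0.13), Kif2c (-0.31), Kif23 (-0.28) and Ect2 (-0.0437). The causes were not tested. Of 229 named genes past 1.5-fold in neurosphere members, 161 stayed past it under every alternative that measured them and 226 kept their sign. The count of higher S-phase list genes in neurospheres, 110, was between 75 and 116 in the alternatives. No paired analysis was possible because each culture had 1 library. Genes under 200 UMIs, most clustered histones among them, were not compared, and the cause of their low counts was not tested.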
